A study of Homo sapiens with 6 samples.

Results

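SS18 and 9 other genes that encode subunits of the BAF chromatin remodelling complex were followed through an RNA immunoprecipitation of FLAG-tagged VMP1. The 10 genes, SS18, SS18L1, SMARCA2, SMARCA4, ARID1A, ARID1B, SMARCB1, SMARCC1, SMARCD1 and BRD9, were found by symbol among the 35252 genes of the deposited FPKM table, and all 10 were among the 20593 genes with enough counts to be tested. SS18 was selected on its rise in the immunoprecipitates over the lysates in these same libraries, so its values in that comparison are a description and carry no test.

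All 6 libraries came from HK2, an established line of human renal proximal tubule epithelium, and all cells had received a FLAG-VMP1 plasmid 48 h earlier. VMP1 spans the membrane of the endoplasmic reticulum and is needed for autophagosomes to form. The lysate group (n = 3, titled as positive controls) was RNA of the whole cell lysate, and the FLAG immunoprecipitate group (n = 3) was RNA recovered on magnetic beads carrying FLAG antibody; polyadenylated RNA was sequenced in both. No immunoprecipitate from cells without the tagged protein, and no precipitate with a control antibody, was analysed here, so RNA that binds the beads and RNA that binds VMP1 cannot be told apart. The treatment labels number the plasmid differently in each sample while the titles name VMP1, and the titles were followed. Nothing in the labels shows that replicates were separate cultures; p-values here capture the spread among these libraries alone, and that spread may be technical. The groups set RNA recovered on beads against RNA of whole lysate, so a difference between them need not be a change in expression. For a level within either group, fewer molecules per cell and fewer contributing cells cannot be told apart in bulk RNA.

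BAF complexes, the mammalian SWI/SNF remodellers, use the energy of ATP to slide or evict nucleosomes and so open DNA to transcription factors. Each complex carries a single ATPase, either SMARCA4 or SMARCA2, on a core that includes SMARCC1, SMARCD1 and, in the canonical forms, SMARCB1. An ARID1 subunit marks the canonical BAF complex, BRD9 marks the non-canonical complex, and SS18 or its paralog SS18L1 sits in both. SS18 is best known for its fusion to SSX genes in synovial sarcoma, and SMARCB1 for its loss in rhabdoid tumours.

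The 250 bases upstream of annotated starts are shown for SS18, for its paralog SS18L1 and for BRD9, because SS18 and BRD9 were the members with all 3 immunoprecipitates above all 3 lysates and SS18L1 was not. Sequences and starts are from RefSeq on GRCh38.p14, written 5′ to 3′ on the strand of the gene. Capitals mark matches on either strand to 4 short motifs. The TATA box was searched with the letters TATAAA. For the box that binds the factor NF-Y the letters were CCAAT. The GC box bound by Sp1-type factors was given as GGGCGG. The core recognised by ETS-family factors was written CCGGAAG.
SS18, proximal start, chr18:26090614-26090863, minus strand: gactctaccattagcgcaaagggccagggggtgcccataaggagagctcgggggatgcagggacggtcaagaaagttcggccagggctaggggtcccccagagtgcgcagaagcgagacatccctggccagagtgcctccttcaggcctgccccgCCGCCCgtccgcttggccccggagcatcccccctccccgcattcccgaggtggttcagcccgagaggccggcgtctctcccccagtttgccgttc
SS18, distal start, chr18:26091220-26091469, minus strand: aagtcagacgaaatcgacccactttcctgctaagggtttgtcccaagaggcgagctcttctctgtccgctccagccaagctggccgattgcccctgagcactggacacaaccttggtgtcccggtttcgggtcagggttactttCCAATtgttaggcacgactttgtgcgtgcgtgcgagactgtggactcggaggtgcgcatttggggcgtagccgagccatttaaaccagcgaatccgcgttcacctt
SS18L1, chr20:62143519-62143768, plus strand: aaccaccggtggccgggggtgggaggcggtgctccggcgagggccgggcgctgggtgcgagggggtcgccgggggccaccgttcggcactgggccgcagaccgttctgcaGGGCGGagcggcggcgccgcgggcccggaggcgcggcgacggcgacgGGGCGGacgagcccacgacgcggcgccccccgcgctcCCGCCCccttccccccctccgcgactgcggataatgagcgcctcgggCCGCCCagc
BRD9, distal start, chr5:892802-893051, minus strand: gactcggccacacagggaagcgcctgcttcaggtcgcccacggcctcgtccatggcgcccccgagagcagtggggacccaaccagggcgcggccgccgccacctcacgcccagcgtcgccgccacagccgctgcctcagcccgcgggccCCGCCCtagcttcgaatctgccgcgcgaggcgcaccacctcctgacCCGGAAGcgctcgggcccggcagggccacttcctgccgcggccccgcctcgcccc

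The proximal SS18 window was 67.6% G or C, held 17 CpG dinucleotides and matched 1 GC box. The distal window was 56.4% G or C with 18 CpG and matched 1 CCAAT box. SS18L1 was denser, at 81.6% G or C with 42 CpG and 4 GC boxes. The distal BRD9 window was 76.8% G or C with 32 CpG, 1 GC box and 1 ETS core. A proximal BRD9 window, not printed, was 77.2% G or C with 36 CpG, 3 GC boxes and 0 ETS cores. Transcripts at that proximal start held 0.67% to 4.38% of BRD9 counts. A median window of all 34943 was 58% G or C with 11 CpG. Of all windows, 42.5% held a GC box, 32.0% a CCAAT box, 10.8% a TATA box and 8.48% an ETS core. Over the 16 windows of the 9 members that RefSeq's table listed, 9 held a GC box, 3 a CCAAT box, 2 an ETS core and 1 a TATA box. A match is a string of letters and not a binding site. Any relation of upstream sequence to RNA recovered in the immunoprecipitates was not tested.

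The libraries held 77753608 to 92948069 counts in the lysates and 54363555 to 59293096 in the immunoprecipitates. VMP1 RNA, in which plasmid and endogenous transcripts were not separated, was 297, 301 and 306 CPM (counts scaled to library size, here with TMM factors) in the lysates and 2347, 274 and 2685 CPM in immunoprecipitates 1, 2 and 3. Immunoprecipitate 2 thus stood at the lysate level while the other two were far above it. Across genes, which are not independent replicates, the shifts of immunoprecipitates 1 and 3 from the lysate mean correlated at r = 0.86, against 0.03 for 1 and 2 and 0.01 for 2 and 3. Of 20593 genes, edgeR's quasi-likelihood test with Benjamini-Hochberg adjustment called 136 (0.660%) at an adjusted p of 0.05, 33 higher (0.160%) and 103 lower (0.500%). Without immunoprecipitate 2 it called 11273 of 22062 (51.1%), while leaving out any other single library gave 0 calls beside 2114 to 3727 genes at an unadjusted p below 0.05. Fold changes of the members, and of the genes with the lowest p in each comparison list, are therefore given with and without immunoprecipitate 2. Of the defining markers of each type, none was at 0 in all lysates or all immunoprecipitates. Over the 14 tubular epithelial markers found, including KRT8, KRT18 and PAX8, 12 reached 1 CPM in the lysates. CUBN and AQP1 did not, with lysate means of 0.73 and 0.37 CPM, and LRP2, also listed, was not found. The summed level of the markers found was 2072 to 2192 CPM in lysates and 970, 2008 and 1000 CPM in immunoprecipitates 1, 2 and 3. Summed levels of 14 fibroblast markers were 517 to 542 against 120, 965 and 131 CPM, and those of 16 neutrophil markers were 328 to 567 against 118, 411 and 15.0 CPM; the part of any of these in the results below was not tested.

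SS18 RNA was about 5 times as abundant in every immunoprecipitate as in the lysates, immunoprecipitate 2 included. The gene (chromosome 18, 26016253 to 26091217, minus strand) had 1377, 1455 and 1568 counts in the lysates and 6059, 4240 and 6186 in the immunoprecipitates. Scaled for depth these were 18.1, 17.9 and 17.8 CPM in the lysates and 95.4, 80.1 and 96.8 CPM in the immunoprecipitates. The lowest immunoprecipitate thus stood far above the highest lysate, and the lysates hardly varied. The means were 17.9 ± 0.16 (SD, n = 3) and 90.8 ± 9.24 CPM (SD, n = 3), a 5.06-fold difference. Against the lysate mean, immunoprecipitates 1, 2 and 3 were 5.32-, 4.47- and 5.40-fold higher. The fitted log2 fold change was 2.34 (SE 0.17), and 2.43 without immunoprecipitate 2. With library totals in place of TMM scaling, which moved the median over all genes by 0.13, it was 2.48. Among the 28 tested subunit genes of BAF, PBAF and non-canonical BAF, SS18 had the largest absolute log2 fold change, followed by DPF3 at 1.86 (below 5 CPM in every library), BRD7 at 1.08 and BRD9 at 1.07. That order was read after the values were seen and reflects how SS18 was chosen.

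**Figure D1:**
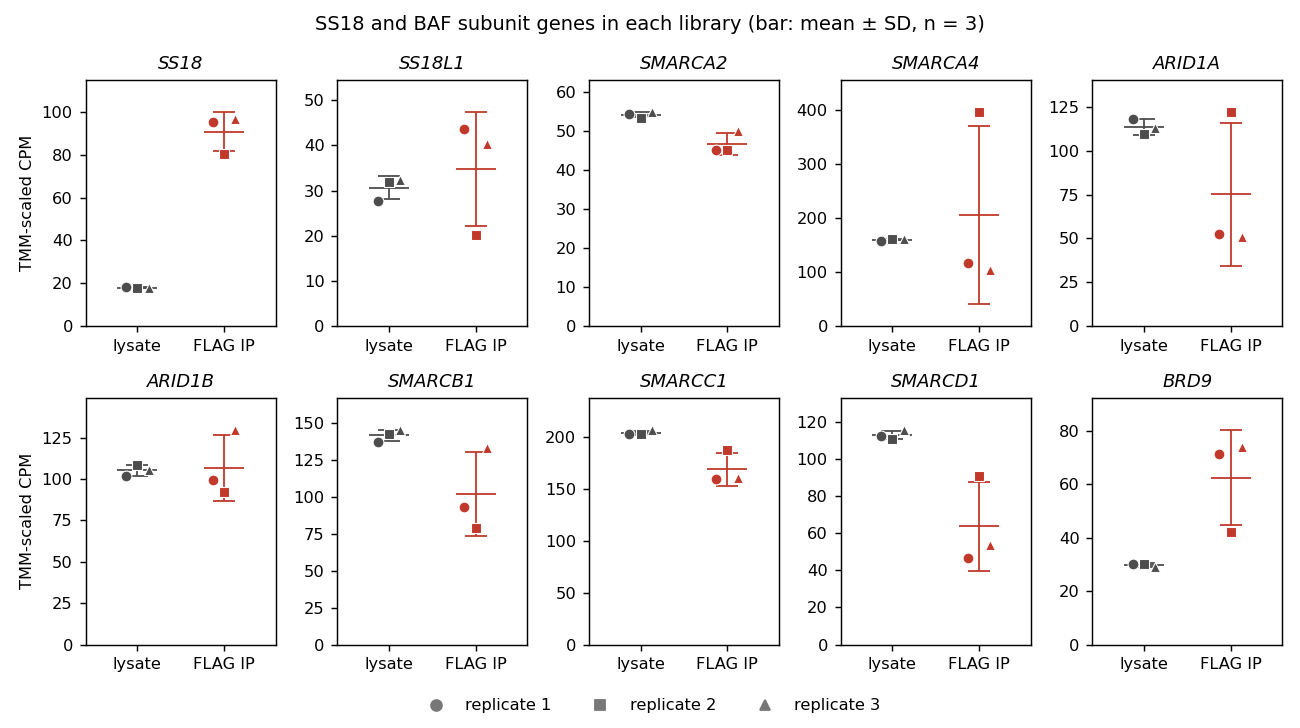
TMM-scaled CPM (y axis, from 0, a separate scale for each gene) of SS18 and the 9 other BAF genes in 3 lysates (grey) and 3 FLAG immunoprecipitates (red). Points are libraries with the symbol giving the replicate number, horizontal lines are means and bars are SD; SS18 is at 17.8 to 18.1 CPM in lysates and 80.1 to 96.8 CPM in immunoprecipitates, and immunoprecipitate 2 (squares) lies away from the other two for SMARCA4 and ARID1A.

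Most of this SS18 RNA was assigned to the same coding transcript in all libraries. ENST00000415083 (11 exons, 3402 nt) begins at the proximal start shown above. It held 82.2%, 84.8% and 71.3% of SS18 transcript counts in the lysates and 86.3%, 69.9% and 93.0% in the immunoprecipitates. The ranges of both groups overlapped. In CPM this transcript stood at 14.9, 15.2 and 12.7 in lysates and 82.3, 56.0 and 90.0 in immunoprecipitates, a 5.34-fold difference of means. The other 20 SS18 transcripts together were at 3.23, 2.71 and 5.12 CPM in lysates and 13.1, 24.1 and 6.82 CPM in immunoprecipitates, 3.98-fold. Both portions were therefore higher in every immunoprecipitate, and the gene's difference did not sit in a minor transcript. Transcript counts are estimates that a model divides among overlapping isoforms. The widest exact (Clopper-Pearson) 95% interval of any transcript share named here was 4.54 percentage points, and it covers counting error only.

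The 10 SS18 transcripts starting within 50 bases of the proximal start held 84.2%, 86.8% and 74.8% of the gene's counts in lysates and 88.8%, 76.0% and 93.0% in immunoprecipitates. The 5 transcripts at the distal start held 9.66%, 2.68% and 17.1% in lysates and 5.58%, 15.0% and 0% in immunoprecipitates. The proximal start led in every library, and the ranges of lysates and immunoprecipitates overlapped for both starts. Transcripts annotated as coding made up 92.3% ± 0.78 (SD, n = 3) of SS18 counts in lysates and 92.5% ± 0.45 (SD, n = 3) in immunoprecipitates, and retained-intron transcripts 4.97% ± 1.11 and 4.38% ± 2.75 (SD, n = 3 each).

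**Figure D2:**
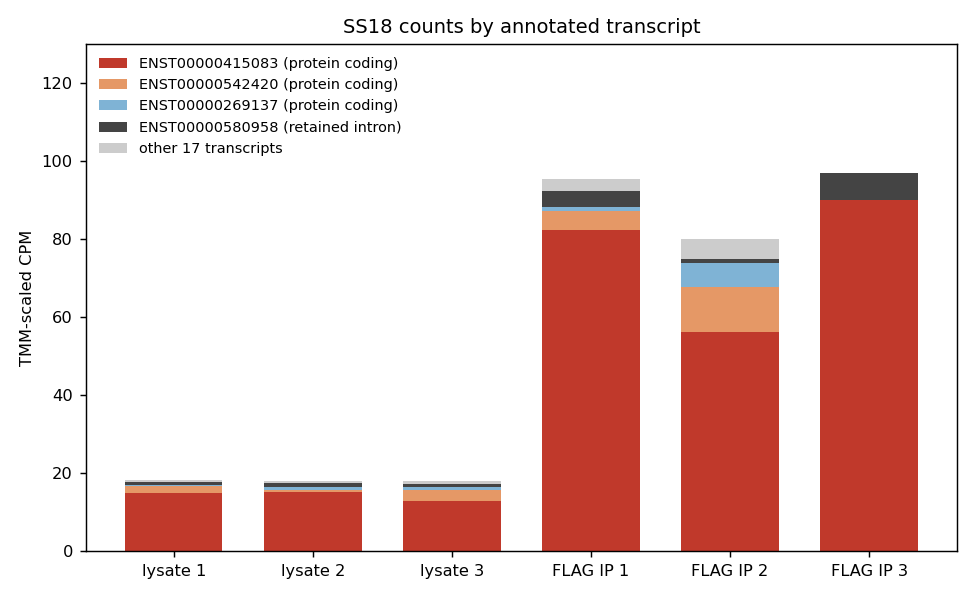
SS18 counts by annotated transcript, in TMM-scaled CPM (y axis, from 0) for each of the 6 libraries, stacked with ENST00000415083 at the bottom and 17 minor transcripts pooled. ENST00000415083 makes up most of every bar, from 69.9% in immunoprecipitate 2 to 93.0% in immunoprecipitate 3.

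On a scale that allows levels to be compared between genes, SS18 stood in the lower part of the subunits in lysates and in their upper part in immunoprecipitates. The scale is the sum of a gene's transcript FPKM values, which divide by transcript length. It therefore also depends on how counts are divided among isoforms. SS18 was at 6.29, 6.16 and 6.14 FPKM in the lysates and 36.7, 28.4 and 36.2 FPKM in the immunoprecipitates. In each lysate it was the lowest of the 10 members and number 23 of all 29 BAF, PBAF and non-canonical BAF subunits, whose median was 10.7 to 12.5 FPKM. In the immunoprecipitates it was number 8, 8 and 7 of the 29, with medians of 13.2, 14.2 and 14.6 FPKM. The choice of SS18 for its rise fixes this move in part.

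Lysate means were 66.3 FPKM for SMARCB1, 32.1 for SMARCD1, 29.3 for SMARCC1, 27.6 for SMARCA4, 13.9 for ARID1A, 11.6 for ARID1B, 9.72 for BRD9, 8.89 for SMARCA2, 7.19 for SS18L1 and 6.20 for SS18 (n = 3 each, SD 0.08 to 1.32). Core subunits therefore led the lysate order. Only BRD9 and SMARCA2 of the 9 neighbouring pairs had overlapping libraries. In the immunoprecipitates the means were 51.2 FPKM for SMARCB1, 46.6 for SMARCA4, 33.8 for SS18, 27.2 for SMARCC1, 22.9 for BRD9, 20.3 for SMARCD1, 16.2 for ARID1B, 11.0 for ARID1A, 9.30 for SMARCA2 and 8.38 for SS18L1 (n = 3 each, SD 0.56 to 25.0). There the libraries of every neighbouring pair overlapped, other than SS18 and SMARCC1. The order depended on the scale. By mean gene FPKM, SMARCB1 was number 4 in lysates and 7 in immunoprecipitates, SS18 9 and 2, and SS18L1 6 and 5. SMARCA4 in immunoprecipitate 1 was above its lysate mean in summed transcript FPKM (39.8 against 27.6). In CPM it was below that mean (118 against 160).

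**Figure D3:**
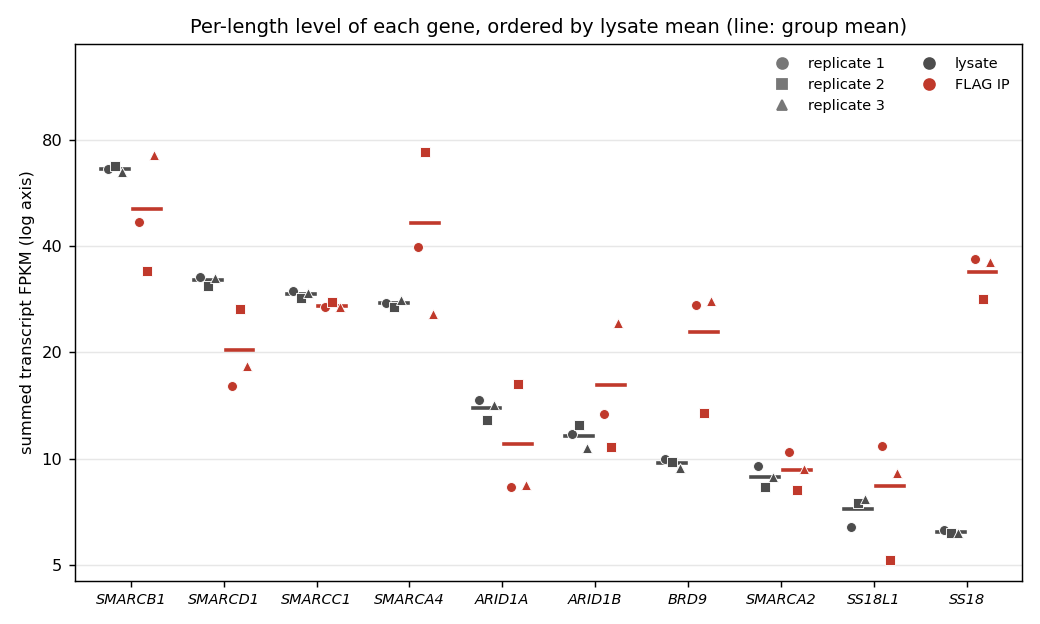
Summed transcript FPKM (y axis, log scale) of the 10 genes, ordered from left to right by lysate mean. Grey points are lysates, red points are immunoprecipitates, symbols give the replicate number and lines are group means; SS18 goes from 6.20 FPKM, the lowest lysate mean, to 33.8 FPKM.

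SS18L1, also called CREST, is the paralog that can take the place of SS18, chiefly in neurons. It did not share the SS18 pattern. Its levels were 27.6, 32.0 and 32.2 CPM in lysates and 43.7, 20.2 and 40.3 CPM in immunoprecipitates, so immunoprecipitate 2 was below all lysates and the other two above them. The log2 fold change was 0.18 (SE 0.31, adjusted p = 0.767, edgeR quasi-likelihood); without immunoprecipitate 2 it was 0.47 (adjusted p = 0.00618), higher in 2 of 2. The log2 ratio of SS18 to SS18L1 in gene FPKM was -0.87, -1.10 and -1.11 in the lysates and 0.87, 1.73 and 1.01 in the immunoprecipitates. The ratio was higher in each immunoprecipitate than in any lysate. The group means differed by 2.23, or by 1.97 without immunoprecipitate 2, which the choice of SS18 fixes in part and which was not tested. Gene FPKM does not place the pair on a common scale of length. In summed transcript FPKM, a comparison chosen after seeing the data, the log2 ratio was -0.02, -0.28 and -0.33 in lysates and 1.76, 2.46 and 1.99 in immunoprecipitates. On that scale the paralogs were nearly level in lysate 1 and SS18 was the higher in each immunoprecipitate. Nearly all SS18L1 transcript counts, 98.5% to 100%, came from transcripts that begin at the start shown above.

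BRD9, the bromodomain subunit that defines the non-canonical complex with SS18, was the other member with all immunoprecipitates above all lysates. Its levels were 30.0, 30.3 and 28.8 CPM in lysates and 71.2, 42.0 and 74.0 CPM in immunoprecipitates. The lysates lay close together, and immunoprecipitate 2 lay between them and the other two. The means were 29.7 ± 0.77 and 62.4 ± 17.7 CPM (SD, n = 3 each), and the log2 fold change was 1.07 (SE 0.25). It did not pass over all genes with edgeR's quasi-likelihood test (adjusted p = 0.109), but did with DESeq2 (adjusted p = 0.00356) and, in edgeR without immunoprecipitate 2, at 1.30 (adjusted p = 2.24e-05). Transcripts at the distal BRD9 start printed above held 85.3%, 89.3% and 92.4% of its counts in lysates and 83.7%, 70.9% and 92.9% in immunoprecipitates. BRD9 overlaps ZDHHC11 on the same strand for 8683 bases, but the only BRD9 transcript reaching that stretch held at most 0.36% of BRD9 counts.

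Across the 9 members other than SS18, 0 passed edgeR's adjusted threshold, where 0.660% of all genes did; 2, SMARCD1 and BRD9, had an unadjusted p below 0.05, where 21.3% of all genes did. DESeq2 called 1, BRD9, where it called 16.7% of the 18942 genes to which it gave an adjusted p. Without immunoprecipitate 2, 6 of the 9 passed, where 51.1% of all genes did: SS18L1 and BRD9 rose, and SMARCA4, ARID1A, SMARCC1 and SMARCD1 fell. BRD9 alone of the 9 had all 3 immunoprecipitates above all 3 lysates, as 13.4% of all genes had, and SMARCA2, SMARCB1, SMARCC1 and SMARCD1 had all 3 below, as 17.7% of all genes had. Without immunoprecipitate 2, 23.9% of all genes rose and 27.2% fell. The counts of 6 of 9 called and 1 of 9 wholly above were near these background shares, and 4 of 9 wholly below was a larger share than 17.7%, a difference that was not tested. The median log2 fold change of the 9 was -0.21, and that of all genes tested 0.06.

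**Figure D4:**
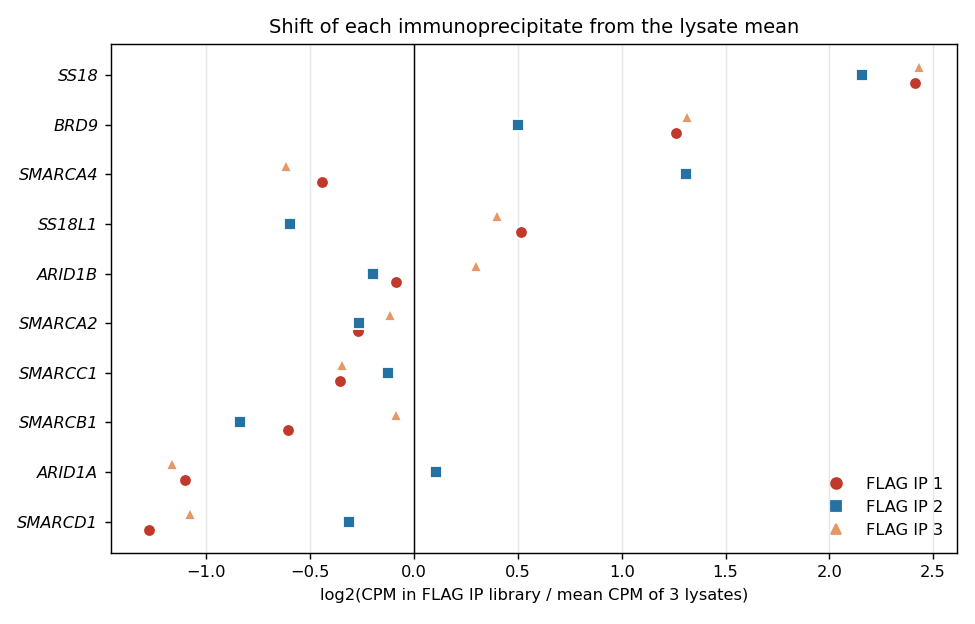
Log2 ratio of the CPM in each FLAG immunoprecipitate to the mean of 3 lysates (x axis), for the 10 genes ordered by their fitted fold change. Each symbol is a library; all 3 symbols lie together only for some genes, and immunoprecipitate 2 (blue squares) is on the opposite side of 0 from the other two for SMARCA4, SS18L1 and ARID1A.

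The ATPases differed in how far immunoprecipitate 2 stood apart. SMARCA4, a catalytic motor of the complex, was at 159, 161 and 161 CPM in lysates and 118, 397 and 104 CPM in immunoprecipitates. The second library alone was above the lysates. The log2 fold change was 0.37 (SE 0.53, adjusted p = 0.724, edgeR quasi-likelihood) and turned to -0.52 (adjusted p = 9.61e-04) without that library. SMARCA2, the alternative motor, was at 54.4, 53.5 and 55.0 CPM in lysates and 45.1, 45.1 and 50.1 CPM in immunoprecipitates, slightly lower in 3 of 3. Its log2 fold change was -0.21 (SE 0.15, adjusted p = 0.453, edgeR), and -0.18 (adjusted p = 0.102) without immunoprecipitate 2. The log2 ratio of SMARCA4 to SMARCA2 in gene FPKM was 1.81, 1.86 and 1.82 in lysates and 1.65, 3.41 and 1.33 in immunoprecipitates. Group means differed by 0.30 (two-sided exact permutation p = 1, n = 3 each), or by -0.34 without immunoprecipitate 2 (exact p = 0.1, the smallest possible there). In summed transcript FPKM they differed by 0.56 (exact p = 0.4), or by 0.06 without that library (exact p = 0.9).

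The ARID1 subunits, which help the canonical complex bind DNA and of which ARID1A is often mutated in cancers, did not move together. ARID1A was at 118, 109 and 113 CPM in lysates and 52.8, 122 and 50.6 CPM in immunoprecipitates. Immunoprecipitates 1 and 3 were thus at 0.465 and 0.445 of the lysate mean while 2 was above every lysate. The log2 fold change was -0.59 (SE 0.37, adjusted p = 0.403, edgeR quasi-likelihood), and -1.12 (adjusted p = 4.65e-05) without immunoprecipitate 2. ARID1B was at 102, 109 and 105 CPM in lysates and 99.1, 91.9 and 129 CPM in immunoprecipitates, with immunoprecipitate 3 above the lysates and the others below. Its log2 fold change was 0.02 (SE 0.19, adjusted p = 0.963, edgeR), and 0.13 (adjusted p = 0.391) without immunoprecipitate 2. The log2 ratio of ARID1A to ARID1B in gene FPKM was 1.74, 1.54 and 1.63 in lysates and 0.62, 1.94 and 0.17 in immunoprecipitates, a difference of -0.73 (two-sided exact permutation p = 0.4, adjusted over 2 pairs p = 0.8; the smallest p that 3 against 3 allows is 0.1). Without immunoprecipitate 2 the difference was -1.24 (exact p = 0.1, again the smallest possible). In summed transcript FPKM it was -0.80 (exact p = 0.4), or -1.37 without that library (exact p = 0.1).

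Among the members, the core subunits SMARCC1, SMARCD1 and SMARCB1 lay lower in the immunoprecipitates, with no call over all 6 libraries. SMARCE1, SMARCC2 and SMARCD2, subunits outside the members, had log2 fold changes of 0.20, -0.51 and -0.21. Without immunoprecipitate 2 these were 0.54, -1.02 and -0.76, and each of these genes had an immunoprecipitate above all lysates. SMARCC1, a scaffold on which the complex assembles, was at 203, 203 and 206 CPM in lysates and 159, 187 and 160 CPM in immunoprecipitates. All 3 immunoprecipitates were below the lysates, by a small margin. The log2 fold change was -0.27 (SE 0.16, adjusted p = 0.375, edgeR quasi-likelihood), and -0.34 (adjusted p = 0.0017) without immunoprecipitate 2. SMARCD1, a core subunit that links the complex to transcription factors, was at 113, 111 and 116 CPM in lysates and 46.7, 91.1 and 53.5 CPM in immunoprecipitates. It was lower in 3 of 3, least so in immunoprecipitate 2. The log2 fold change was -0.83 (SE 0.28, adjusted p = 0.182, edgeR), and -1.16 (adjusted p = 7.45e-05) without immunoprecipitate 2.

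SMARCB1, a core subunit of canonical BAF and PBAF that the non-canonical complex lacks, was at 137, 143 and 145 CPM in lysates and 93.1, 79.2 and 134 CPM in immunoprecipitates. All 3 immunoprecipitates were lower, but immunoprecipitate 3 came close to the lowest lysate. The log2 fold change was -0.48 (SE 0.23, adjusted p = 0.294, edgeR quasi-likelihood), and -0.31 (adjusted p = 0.133) without immunoprecipitate 2. SMARCB1 overlaps DERL3 on the opposite strand for 3507 bases, and its transcripts reaching that stretch held 93.6% to 98.0% of its counts. The use of strand in counting is not given in the sources at hand, so reads of the pair may not be told apart; DERL3 averaged 2.33 CPM in lysates and 0.41 CPM in immunoprecipitates.

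For 9 of the 10 members immunoprecipitate 2 lay outside the interval between immunoprecipitates 1 and 3, and over all 10 it was above the mean of those libraries for 4 and below it for 6. The share of all genes for which it lay outside was not counted, so these counts are not read as a trait of the members. Immunoprecipitates 1 and 3 never differed from each other by more than 0.52 on the log2 scale. The coefficient of variation was 0.90% to 8.44% among lysates and 6.20% to 80.1% among immunoprecipitates, with SMARCA4 the highest and SMARCA2 the lowest.

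Isoform shares were tested for the 9 members other than SS18, and 0 passed with edgeR's diffSpliceDGE and Simes' method over all 6 libraries, where 2.32% of 11671 genes did; the lowest p was that of SMARCA4 (adjusted p = 0.268). Without immunoprecipitate 2, 2 of the 9 passed, where 11.8% of 12562 genes did: ARID1A (adjusted p = 7.20e-05) and SMARCA4 (adjusted p = 0.0397). SS18, SS18L1, SMARCC1 and BRD9 had the same leading transcript in all 6 libraries. For SMARCA2, SMARCA4, SMARCB1 and SMARCD1 the leading transcript differed between lysates of the same group, so shares of their near-identical isoforms are unstable estimates. In SMARCA4, for example, ENST00000642628 held 58.3%, 1.02% and 43.4% of counts in the lysates, and ENST00000344626 2.80%, 53.1% and 23.8%. In immunoprecipitate 2, ENST00000645460 held 89.1% of SMARCA4 counts, against 1.24% and 0% in immunoprecipitates 1 and 3. ARID1A had the same leading transcript in all lysates, but its shares varied within groups as well. Transcripts at its RefSeq start held 41.5%, 47.5% and 10.2% of ARID1A counts in lysates. In immunoprecipitates they held 84.5%, 7.39% and 72.6%.

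Retained-intron transcripts, which keep an intron and are mostly not translated, took a larger share of SMARCA4 and ARID1A in immunoprecipitates 1 and 3. Their share of SMARCA4 counts was 1.68%, 1.75% and 1.67% in lysates and 38.2%, 3.87% and 13.5% in immunoprecipitates. For ARID1A it was 0.66%, 1.12% and 0.33% in lysates and 15.3%, 1.21% and 18.7% in immunoprecipitates. Nearly all of the latter was ENST00000637788, at 15.1%, 1.05% and 18.6%, a transcript of the gene's 3′ portion. In 4 of the 9 members with such transcripts, SMARCA4, ARID1A, SMARCC1 and SMARCD1, all 3 immunoprecipitates were above all 3 lysates, as were 21.6% of 8209 genes with such transcripts. SMARCC1 stayed at 0.50% or less in every library and SMARCD1 at 2.69% or less. SS18 and BRD9 showed no such separation: BRD9 was at 11.8%, 6.81% and 5.48% in lysates and 6.61%, 19.6% and 4.00% in immunoprecipitates.

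BRD9 had another large fraction of transcripts annotated for nonsense-mediated decay, a pathway that degrades RNA with an early stop codon. That fraction was 14.3%, 31.0% and 29.6% in lysates and 21.6%, 22.5% and 44.1% in immunoprecipitates, and the groups overlapped. The coding transcript ENST00000467963 led in each library, with 62.0% to 73.7% in lysates and 51.9% to 70.8% in immunoprecipitates. In ARID1B, immunoprecipitate 3 differed from all others: the coding transcript ENST00000636930 held 0% there against 58.1% to 84.2% elsewhere. Another coding transcript, ENST00000346085, led there at 45.6% against at most 0.98% elsewhere. The retained-intron transcript ENST00000636254 held 40.0% there against at most 1.62%. All retained-intron transcripts of ARID1B together held 7.96%, 25.4% and 7.17% in lysates and 16.6%, 7.67% and 52.3% in immunoprecipitates, so the groups overlapped. SMARCC1 was the simplest, with ENST00000254480 at 99.5% to 99.9% of its counts everywhere.

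The remaining subunits of BAF, PBAF and the non-canonical complex were read from a list of 19, of which 18 were tested. None of the 18 passed edgeR's adjusted threshold and 2 had an unadjusted p below 0.05, where 21.3% of all genes did. The median log2 fold change was -0.04 against 0.06 for all genes, and DESeq2 called 0, where it called 16.7% of genes. No gene of the list had all 3 immunoprecipitates above the lysates, as 13.4% of all genes had, and 2 had all 3 below, as 17.7% of all genes had. Without immunoprecipitate 2, 4 rose and 8 fell, where 23.9% and 27.2% of all genes did, and the median was -0.31 against -0.10 for all genes. BRD7, a bromodomain subunit of PBAF, had the lowest p, at 139, 148 and 140 CPM in lysates and 383, 141 and 379 CPM in immunoprecipitates (log2 fold change 1.08, adjusted p = 0.200, edgeR; without immunoprecipitate 2, 1.44, adjusted p = 7.24e-06). In immunoprecipitate 2 it therefore lay at the lysate level, unlike SS18 and BRD9. ACTL6A, an actin-related subunit, averaged 122 ± 1.92 and 94.4 ± 4.73 CPM (SD, n = 3 each; log2 fold change -0.37, adjusted p = 0.228, edgeR). Without immunoprecipitate 2 it fell by 0.40 (adjusted p = 0.00155, edgeR). PBRM1, which defines PBAF, averaged 45.5 ± 5.04 and 65.5 ± 14.3 CPM (SD, n = 3 each; log2 fold change 0.52, adjusted p = 0.248, edgeR), and without immunoprecipitate 2 it rose by 0.71 (adjusted p = 0.00121).

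Other ATPases related to those of nucleosome remodellers, and the polycomb repressors, which oppose BAF at many genes, gave the comparison outside the complex. Of 24 ATPase genes, 0 passed edgeR's adjusted threshold and 5 had an unadjusted p below 0.05, where 21.3% of all genes did. The median log2 fold change was 0.43, and DESeq2 called 5, where it called 16.7% of genes. All 3 immunoprecipitates were above all 3 lysates for 4 ATPase genes, as for 13.4% of all genes. All 3 were below for 0, where 17.7% of all genes were. Without immunoprecipitate 2, 12 rose and 3 fell, where 23.9% and 27.2% of all genes did. The lowest p belonged to CHD1L (0.85, adjusted p = 0.134, edgeR), CHD7 (0.95, adjusted p = 0.156) and BTAF1 (1.88, adjusted p = 0.161), which without immunoprecipitate 2 rose by 1.07 (adjusted p = 4.69e-05), 1.22 (adjusted p = 2.42e-05) and 2.34 (adjusted p = 9.77e-06). Of 27 polycomb genes, 0 passed and 10 had an unadjusted p below 0.05, with a median of 0.13, and DESeq2 called 7. All 3 immunoprecipitates were above all 3 lysates for 4 polycomb genes and below them for 8. Without immunoprecipitate 2 edgeR found that 14 rose and 9 fell. The background shares are those given for the ATPases. They were 21.3% at an unadjusted p below 0.05, 16.7% called by DESeq2, and 13.4% wholly above and 17.7% wholly below. Without immunoprecipitate 2 they were 23.9% higher and 27.2% lower. PCGF5 (-0.98, adjusted p = 0.081, edgeR), PCGF2 (-1.44, adjusted p = 0.083) and PHF19 (-0.84, adjusted p = 0.099) had the lowest p; without immunoprecipitate 2 they fell by 0.86 (adjusted p = 1.76e-04), 1.71 (adjusted p = 7.09e-05) and 0.72 (adjusted p = 0.00116) on the log2 scale.

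**Figure D5:**
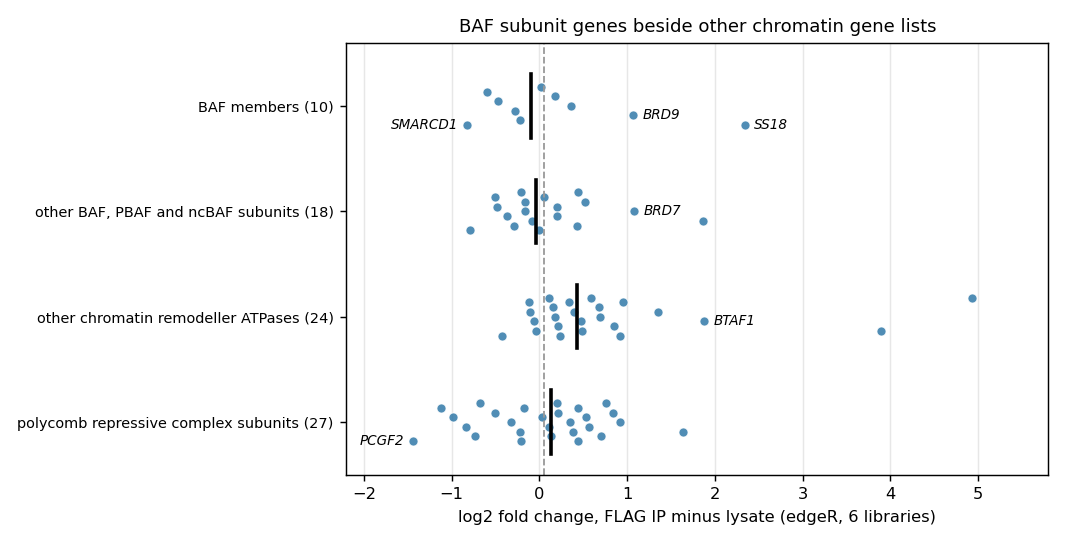
Log2 fold change of FLAG immunoprecipitate over lysate (x axis; edgeR, 6 libraries) for each tested gene of 4 lists, with the number tested in brackets. Points are genes, spread vertically for legibility, black bars are list medians and the dashed line is the median of all genes, 0.06; in the top row SS18 is at 2.34, the next highest member is BRD9 at 1.07, and SMARCD1 is lowest at -0.83.

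The genes whose levels followed SS18 most closely over the 6 libraries were FER1L4, FKBP11, SNHG17, ABCA5 and GSDMB. Closeness was the Euclidean distance between mean-centred log2(CPM + 1) values among 12048 genes of at least 5 CPM, and was 0.18 for FER1L4, 0.53 for FKBP11 and SNHG17, 0.54 for ABCA5 and 0.58 for GSDMB. FER1L4, a pseudogene transcribed as a long RNA, was at 19.1, 21.0 and 20.9 CPM in lysates and 113, 84.3 and 104 CPM in immunoprecipitates. Like SS18 it was high in immunoprecipitate 2 as well. FKBP11, a prolyl isomerase of the secretory pathway, was at 6.75, 6.17 and 6.92 CPM in lysates and 26.5, 26.0 and 27.9 CPM in immunoprecipitates. These genes were picked for their likeness, so their values carry no test, and all 6 points share the same libraries and scaling.

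The nearest tested genes on each side of SS18 on chromosome 18 were read for comparison. On the side of its start, DHFRP1, a pseudogene 79.5 kb away, averaged 12.3 ± 0.43 CPM in lysates and 6.04 ± 6.85 CPM in immunoprecipitates (SD, n = 3 each), and TAF4B, a TFIID subunit 135 kb away, averaged 15.0 ± 0.79 and 19.5 ± 4.18 CPM. All 3 immunoprecipitates of TAF4B were above all 3 lysates, as were those of 13.4% of all genes. On the other side, ZNF521, 664 kb away, was below 1 CPM in every library, and IMPACT, a translational regulator 1563 kb away, averaged 23.7 ± 1.20 and 26.0 ± 4.81 CPM. None of the 4 passed edgeR's adjusted threshold over 6 libraries, where 0.660% of all genes did, with adjusted p = 0.517, 0.396, 0.943 and 0.743 in that order. Without immunoprecipitate 2, DHFRP1 fell (log2 fold change -2.53, adjusted p = 0.00342), and TAF4B rose by 0.51 (adjusted p = 0.0305) and IMPACT by 0.29 (adjusted p = 0.0374). In that setting 51.1% of all genes passed. No gene in the deposited table overlapped SS18.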

How the data were processed

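RNA of 3 lysates and 3 FLAG immunoprecipitates was sequenced from oligo(dT)-selected, dUTP-marked paired-end libraries, per the labels' protocols. Per the submitters' processing notes, StringTie 2.1.6, HISAT2 2.2.1, cutadapt 1.9, DESeq2 and edgeR were used on build GRCh38.p14, in roles that the notes do not give. Per the file headers, the authors deposited whole-number counts of genes and of transcripts. FPKM values of both were deposited too, scaled by length and library. Gene FPKM uses a longer length than the transcripts do, so levels are compared between genes by summed transcript FPKM, while paralog ratios in gene FPKM bear only on differences between groups.

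Counts were tested with edgeR's quasi-likelihood test (R 4.3.3, edgeR 4.0.16, TMM scaling, default expression filter, Benjamini-Hochberg adjustment over all 20593 genes, threshold 0.05); fold changes are immunoprecipitate minus lysate, and each SE is that value over the square root of F. For transcript usage, diffSpliceDGE was run with Simes' method; paralog ratios of gene FPKM were compared by exact permutation tests. The code was tested on simulated data. Summed transcript FPKM was added as an alternative for these ratios after seeing the data. The other alternatives were other scalings and filters, DESeq2 1.42.0, a replicate block, each library left out, and limma 3.58.1 on log2(FPKM + 0.1) or log2(FPKM + 1). The members and lists were chosen with earlier results of these data known. The text names all members, VMP1, up to 3 genes per comparison list by lowest p, transcripts with at least 10% of a member's counts in the mean of either group (at most 4 per member), the 5 genes nearest SS18 and the 2 nearest tested genes on each side of it. SMARCE1, SMARCC2 and SMARCD2 were added after seeing the data, beside the core subunits among the members.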

Additional observations from a re-analysis of the deposited data

How the results depend on the processing

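The number of genes called, 136 over all 6 libraries, was 40 with no expression filter, 225 with a filter of 1 CPM in 3 libraries, 3155 with DESeq2, 0 with the replicate number as a block (replicate block; 2658 genes at an unadjusted p below 0.05) and 0 to 11273 when a library was left out, the highest without immunoprecipitate 2. Deviations of same-numbered libraries from their group means correlated at -0.03, -0.08 and 0.03 across genes. With 3 libraries per group and immunoprecipitate 2 far from the other immunoprecipitates, this cannot decide whether the replicate numbers pair the samples. Under the block 0 of the 9 members other than SS18 were called, as without it. Of those 9, 0 were called, against 1 with DESeq2 and 0 to 6 with a library left out. Other subunits gave 0 calls and 0 to 12 with a library left out. The related ATPases gave 0, 5 with DESeq2 and 0 to 15, and polycomb genes 0, 7 with DESeq2 and 0 to 23. Transcript usage gave 0 and 0 to 2. The SS18 log2 fold change of 2.34 was 2.48 with library totals, 2.11 with limma on log2(FPKM + 1) and 2.27 to 2.43 with a library left out. Signs turned for SS18L1 (-0.039 without immunoprecipitate 1; -0.039 to 0.47 over all left-out libraries), SMARCA4 (-0.52 without immunoprecipitate 2; -0.52 to 0.66), ARID1B (-0.027 without lysate 1, -0.0031 without lysate 3, -0.16 without immunoprecipitate 3; -0.16 to 0.13) and the ratio of SMARCA4 to SMARCA2 (-0.34 without immunoprecipitate 2; -0.34 to 0.70 over all left-out libraries); the cause was not tested. The other member fold changes kept their sign in 124 alternatives on the same side of the threshold and in 6 that passed it. Each member had at least 1071 counts in every library, so counting error was small beside the spread between immunoprecipitates.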
